A study of Mus musculus with 42 samples.

Results

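The kidney transcripts described here are Kap and 7 other genes that are abundant in, or known from, the proximal tubule: Miox, Cyp2e1, Cyp4b1, Odc1, Acsm2, Acsm3 and Spink1. They are 8 of 56691 genes in the deposited tables. They were taken by name, and Kap was chosen by its measured FPKM share in 1 pool, that of chow-fed mice at zeitgeber time (ZT, hours after lights on) 21. The levels of Kap that led to this choice are therefore given as a description, without a test. The study used wild-type male C57BL/6 mice housed with 12 h light and 12 h dark, which were 6 weeks old when the diets began. For 14 weeks the control group ate standard chow and the other group a high-fat diet that held 3% EpSA, or epoxystearic acid, which forms by oxidation when frying oil is heated. Whole kidneys were collected at ZT 1, 5, 9, 13, 17, 21 and 25, and ZT 25 is the clock hour of ZT 1 a day later. The labels list 3 mice per diet and time, 42 libraries in all, and the deposited tables hold 1 value per gene for each diet and time, the mean made by the authors, called a pool here. The spread between mice and the depth of the libraries are thus unknown. A high-fat group without EpSA was not analysed here. Effects of the fat and of EpSA therefore cannot be told apart.

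The proximal tubule is the segment of the nephron that takes back most of the filtered solutes and that breaks down organic acids, sugars and xenobiotics. In rodents its expression depends on sex and on androgens, and Kap, the kidney androgen-regulated protein, is the classical example of a transcript that they maintain. Odc1 (ornithine decarboxylase, the rate-limiting enzyme of polyamine synthesis) and Cyp4b1 (a cytochrome P450 monooxygenase) are also known to respond to androgens in the mouse kidney. Cyp2e1 is the ethanol-inducible P450, Miox (myo-inositol oxygenase) carries out the first step of inositol breakdown, Acsm2 and Acsm3 are medium-chain acyl-CoA synthetases, and Spink1 is a secreted trypsin inhibitor best known from the pancreas.

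Promoter sequences of Kap, Cyp2e1 and Cyp4b1 were examined because the 2 latter had the courses most like that of Kap over the EpSA pools, as described further on. The 250 bases before the RefSeq start are shown 5′ to 3′ for these 3 genes, from RefSeq on GRCm38.p6. They are chr6:133853668-133853917 on the minus strand for Kap, chr7:140763569-140763818 on the plus strand for Cyp2e1 and chr4:115647722-115647971 on the minus strand for Cyp4b1. Capitals mark matches to the motifs searched.
Kap: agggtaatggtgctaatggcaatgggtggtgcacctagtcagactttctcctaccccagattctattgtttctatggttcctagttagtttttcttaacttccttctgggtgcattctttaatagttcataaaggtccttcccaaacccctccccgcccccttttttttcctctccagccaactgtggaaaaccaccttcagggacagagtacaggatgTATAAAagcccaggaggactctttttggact
Cyp2e1: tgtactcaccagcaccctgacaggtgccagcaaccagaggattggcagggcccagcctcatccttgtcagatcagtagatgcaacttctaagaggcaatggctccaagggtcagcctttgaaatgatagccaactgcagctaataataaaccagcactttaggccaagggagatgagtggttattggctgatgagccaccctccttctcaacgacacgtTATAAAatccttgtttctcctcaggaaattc
Cyp4b1: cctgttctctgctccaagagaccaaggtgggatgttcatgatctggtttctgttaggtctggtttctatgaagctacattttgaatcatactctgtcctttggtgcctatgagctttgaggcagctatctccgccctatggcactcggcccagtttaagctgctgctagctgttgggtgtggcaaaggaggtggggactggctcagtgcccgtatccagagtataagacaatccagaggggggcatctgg
In the GENCODE annotation of GRCm38 the models of Kap and Cyp2e1 start further upstream than in RefSeq, so that part of these windows is transcribed in those models.

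The motifs were searched on both strands, and the windows of Kap and Cyp2e1 held 1 match each. Kap and Cyp2e1 each carried a TATA box (TATAAA) from -31 to -26 before the RefSeq start, which 12.4% of 32851 promoter windows of the same length also contained in some position. Miox and 1 of 2 start windows of Acsm2 carried the same letters. The window of Cyp4b1 held none of the motifs searched. The HNF1 half-site (GTTAAT, 6.43% of windows) occurred in Miox and Acsm2, and the D-box of clock output factors (TTATGTAA, 0.819% of windows) in Miox and Acsm3. The HNF4 direct repeat (CAAAGTCCA, 0.384%) and the E-box (CACGTG, 6.02%) were found in none of the windows read, which covered 7 of the 8 genes. A match is only a run of letters, and its absence from a window says nothing about the factor.

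From 27796 to 29783 genes were above 0 in a pool. The FPKM (fragments per kilobase of transcript, scaled to sequencing depth) added up to 400590 to 435621 per pool. The markers of the proximal tubule were present throughout: all 8 were found, and their summed level was 2228 to 2757 FPKM in the chow pools and 2280 to 2633 FPKM in the EpSA pools. In whole-kidney RNA, fewer cells of a type and less RNA per cell cannot be told apart. Pools differed in their content of other tissues. In EpSA at ZT 9, 5 adrenal markers summed to 108 FPKM, against at most 1.58 FPKM in the chow pools. Fat markers summed to 104 to 245 FPKM in chow and from 56.1 FPKM at ZT 13 to 296 FPKM at ZT 5 in EpSA. Macrophage markers ran from 66.8 FPKM at ZT 17 to 175 FPKM at ZT 1 in chow and from 61.2 to 88.1 FPKM in EpSA. Mitochondrially encoded genes took from 22.15% of the FPKM sum in chow at ZT 21, the lowest share, to 32.66% in EpSA at ZT 21, the highest.

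Kap (ENSMUSG00000032758, chromosome 6 from 133849851 to 133853762 in GRCm38, minus strand) had the highest FPKM of all genes in each of the 14 pools. In chow its level was 37533, 33834, 35750, 39624 and 38126 FPKM from ZT 1 to ZT 17, then 62960 FPKM at ZT 21 and 47820 FPKM at ZT 25. In EpSA it was 40317, 35261, 36941, 38122 and 32674 FPKM from ZT 1 to ZT 17, then 29286 FPKM at ZT 21 and 34129 FPKM at ZT 25. The 5 other chow pools and 6 of the EpSA pools lay between 32674 and 40317 FPKM, so that the chow pools at ZT 21 and ZT 25 were the highest of all and the EpSA pool at ZT 21 the lowest. The highest and lowest levels of Kap in the study thus came from the same hour of the day on different diets.

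As a share of all FPKM, Kap made up 9.33%, 8.45%, 8.88%, 9.60% and 9.31% of the chow pools from ZT 1 to ZT 17, 14.45% at ZT 21 and 11.28% at ZT 25. In EpSA the shares ran from 7.12% at ZT 21 to 9.73% at ZT 1. The next genes in level were mitochondrial: mt-Co1, a subunit of cytochrome oxidase, averaged 23808 FPKM over the chow pools and 28111 FPKM over the EpSA pools, and mt-Cytb 23391 and 27222 FPKM. The rest of the 10 highest genes were the same in both diets, namely mt-Nd1, mt-Nd2, the secreted glutathione peroxidase Gpx3 (11301 FPKM in chow and 10276 FPKM in EpSA), mt-Nd4, mt-Nd6, mt-Nd5 and ENSMUSG00000119584, an identifier with no symbol in the reference names. Kap was 3.01 times as high as the next gene in chow at ZT 21 and 1.00 times as high in EpSA at ZT 21, where Kap and mt-Co1 stood level. With mitochondrial genes left out of the sum, the share of Kap was 18.57% in chow at ZT 21 and 10.57% in EpSA at ZT 21, still the highest and the lowest of the 14 pools.

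**Figure D1:**
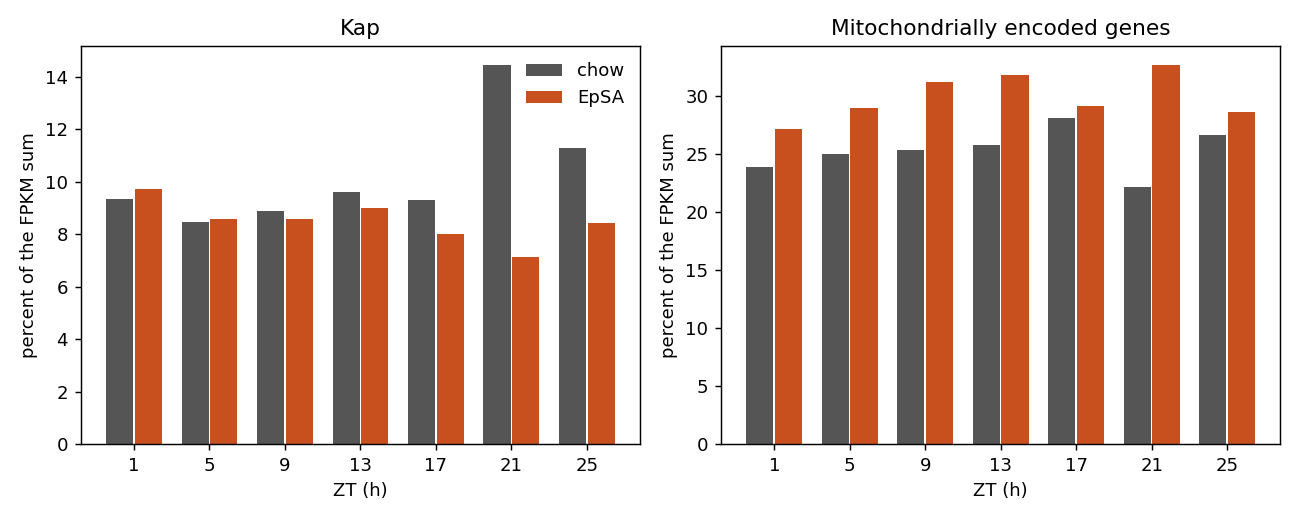
Share of the FPKM sum taken by Kap (left) and by mitochondrially encoded genes (right), in percent, in each pool by ZT in hours; grey bars are chow and orange bars EpSA, each bar 1 pool. Kap reached 14.45% in chow at ZT 21, where the mitochondrial share was lowest at 22.15%, and 7.12% in EpSA at ZT 21, where that share was highest at 32.66%.

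The diets were compared at each time by values, since each time holds 1 pool per diet. Kap was higher in EpSA than in chow at ZT 1, 5 and 9, by 0.10, 0.06 and 0.05 on the log2(FPKM + 1) scale. It was lower in EpSA at the 4 later times, with log2 differences of -0.06 and -0.22 at ZT 13 and ZT 17, and of -1.10 and -0.49 at ZT 21 and ZT 25. At ZT 21 the level in EpSA was 0.465 times that in chow. Averaged over the 7 times, the log2 difference was -0.24, and it was -0.09 without ZT 21, so that this 1 time carried most of it. It was -0.14 with a trend on transcript length removed and -0.15 with mitochondrial genes left out of the sum. The pair of pools from the same clock hour also differed within a diet: in chow, Kap at ZT 25 was 1.27 times its level at ZT 1, and in EpSA 0.847 times.

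The chow ZT 21 pool differed from the others by transcript length, and Kap has a short transcript of 707 bases. Among 4318 genes averaging 10 FPKM or more, those with transcripts under 800 bases (417 genes) stood at a median of 0.31 above their mean over the 6 other chow pools on the log2 scale, those of 1200 to 2000 bases at 0.04, and those of at least 5000 bases at -0.07. In EpSA at ZT 21 the trend ran the other way, from -0.12 for the shortest transcripts to 0.06 for the longest. Other pools held trends as well. From the shortest to the longest class, medians ran from 0.135 to -0.125 in EpSA at ZT 9 and from -0.141 to 0.037 in chow at ZT 17. Kap stood 0.71 above the other chow pools, which put it at position 62 of the 4318 genes and 42 of the 417 short genes. With the trend on length removed, Kap stood 0.46 above the other chow pools at ZT 21, and its difference between the diets at that time was -0.70 instead of -1.10. What produced the length trends in these pools was not tested.

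**Figure D2:**
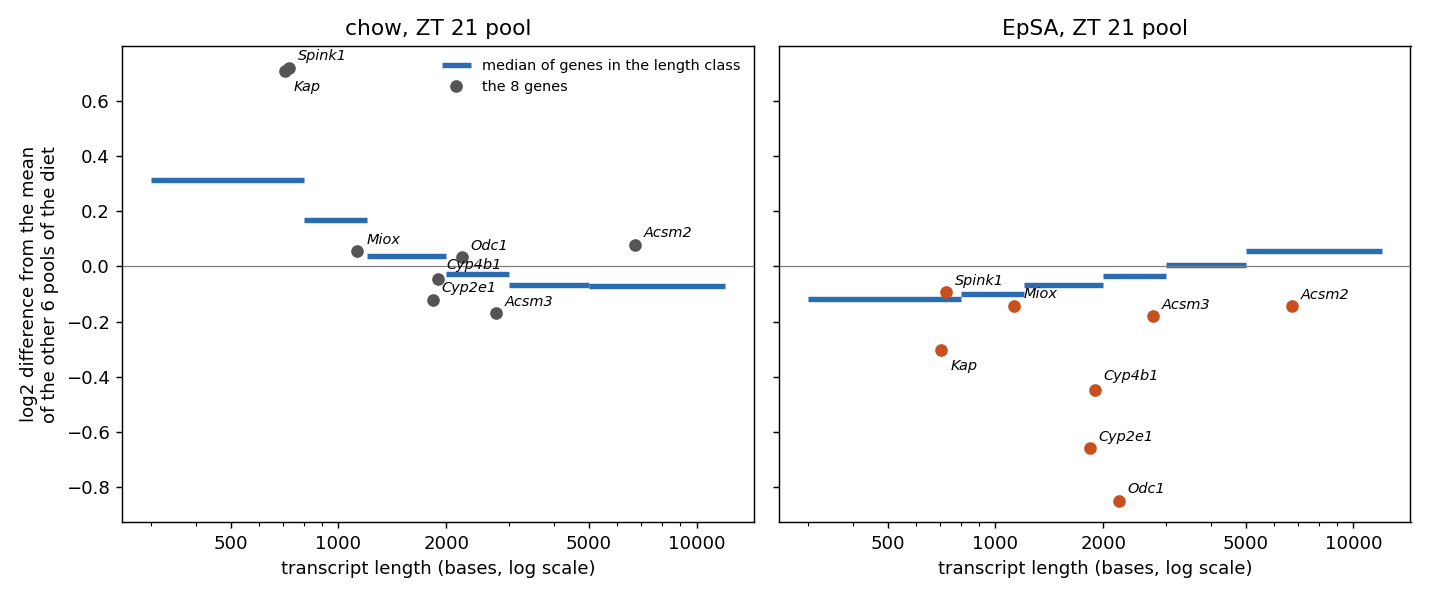
Log2 difference of the ZT 21 pool from the mean of the 6 other pools of the same diet, against transcript length in bases (log axis), in chow (left) and EpSA (right); points are the 8 genes and blue bars the medians of genes averaging 10 FPKM or more in 6 length classes. In chow, Kap (0.71) and Spink1 (0.72) lay above the median of their class (0.31), and in EpSA Odc1 (-0.85) and Cyp2e1 (-0.66) lay furthest below 0.

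Below Kap, the order of levels per length was Cyp4b1, with a mean of 1298 FPKM over the chow pools, then Cyp2e1 (758 FPKM), Acsm2 (663 FPKM), Miox (653 FPKM), Spink1 (632 FPKM), Odc1 (293 FPKM) and Acsm3 (93.9 FPKM). In EpSA the order was Cyp4b1 at 1162 FPKM, Miox at 680 FPKM, Cyp2e1 at 641 FPKM, Acsm2 at 640 FPKM, Spink1 at 570 FPKM, Odc1 at 203 FPKM and Acsm3 at 84.9 FPKM. Within each diet, the pools of Kap, Cyp4b1, Odc1 and Acsm3 overlapped with those of no other gene of the 8. The pools of Cyp2e1, Acsm2, Miox and Spink1 overlapped with each other, and their order is within the spread between times. Together these 7 genes made up between 0.789% of the FPKM sum, in EpSA at ZT 21, and 1.191%, in chow at ZT 17.

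**Figure D3:**
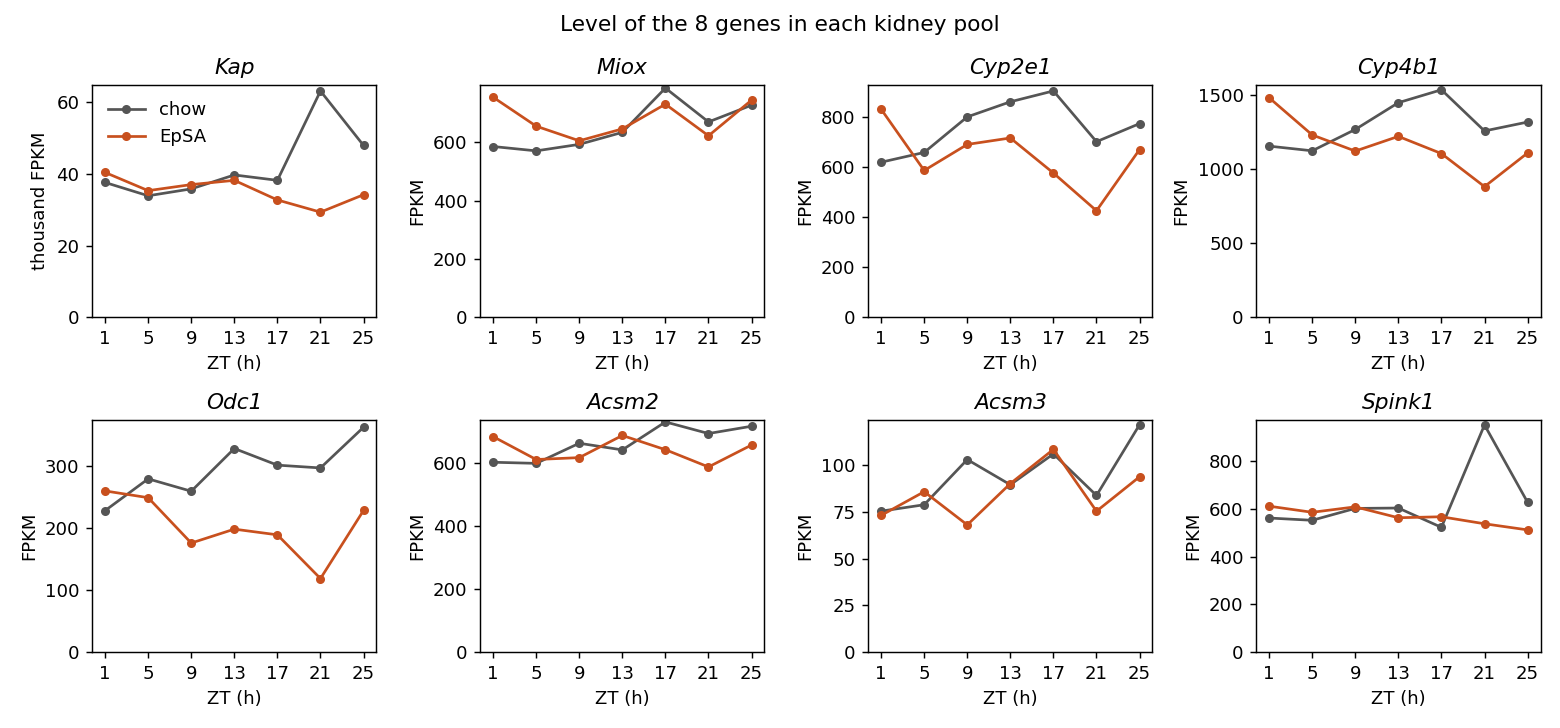
FPKM of the 8 genes in each pool by ZT in hours, chow in grey and EpSA in orange; each point is the authors' mean for 1 diet and time, and the axis of Kap has its own unit, as labelled. Kap and Spink1 peaked in chow at ZT 21, and Odc1 was lower in EpSA than in chow at 6 of 7 times.

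The diet effect over the day was tested for the 7 genes other than Kap, with time as a factor in limma, and 0 of 7 passed at a Benjamini-Hochberg adjusted p under 0.05. Over all 13344 genes whose mean reached 1 FPKM, 31 genes (0.232%) passed this threshold, 21 of them with EpSA higher (0.157%) and 10 with EpSA lower (0.0749%). Without adjustment, at p under 0.05, 1 of the 7 passed, namely Odc1, which was lower in EpSA. Over all genes 2562 (19.2%) did, 1417 lower (10.6%) and 1145 higher (8.58%). None of the 8 genes had pools of one diet wholly apart from those of the other, a pattern of 0.465% of all genes with EpSA lower and 0.427% with EpSA higher. Cyp2e1 and Odc1 had lower values in EpSA at 6 of 7 times, as did 14.9% of all genes at 6 or 7 times. Including Kap, 7 of 8 genes had a mean log2 difference below 0, with a median of -0.15 (-0.14 without Kap), against 53.9% of all genes and a median of -0.01. With mitochondrial genes left out of the sum Acsm2 turned positive, leaving 6 of 8 below 0, and the median of all genes was 0.059. The tests measure error by the variation between times left after the model, and the variation between mice is not in them.

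The 2 P450 genes moved together. Cyp2e1 (chromosome 7 from 140763739 to 140774987, plus strand) was at 618, 657, 799, 859, 902, 700 and 772 FPKM in chow from ZT 1 to ZT 25, and at 830, 585, 689, 715, 575, 425 and 669 FPKM in EpSA. Cyp4b1 (chromosome 4 from 115624725 to 115647723, minus strand) was at 1153, 1121, 1265, 1445, 1532, 1255 and 1315 FPKM in chow, and at 1478, 1228, 1119, 1218, 1103, 880 and 1107 FPKM in EpSA. In chow both peaked at ZT 17. In EpSA both were highest at ZT 1, with their lowest value at ZT 21. Cyp2e1 was lower in EpSA at 6 of 7 times, with a log2 difference of -0.26 ± 0.12 (SE; limma, Benjamini-Hochberg adjusted p = 0.281), and Cyp4b1 at 5 of 7 times, with -0.17 ± 0.10 (adjusted p = 0.41). Neither difference passed the test, and the values of the diets overlapped. At ZT 1 both were higher in EpSA, at 1.34 times the chow level for Cyp2e1 and 1.28 times for Cyp4b1, and at ZT 21 they were at 0.607 and 0.702 times.

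The other P450 genes and their redox partners gave no common direction. Of 13 genes on this list, 11 passed the filter of a mean of at least 1 FPKM, 7 of them were below 0 in EpSA against chow, and their median log2 difference was -0.04, against -0.01 over all 13344 genes tested, of which 53.9% were below 0. None passed the adjusted threshold of 0.05. At an unadjusted p under 0.05 in limma 3 were higher and 1 lower, against 8.58% and 10.6% of all genes. Cyp27b1, which activates vitamin D, was at 0.47 ± 0.15 (adjusted p = 0.151), at 0.413 to 3.03 FPKM over all pools. Cyp4a10, which hydroxylates fatty acids, was at 0.26 ± 0.09 (adjusted p = 0.174).

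Odc1 (chromosome 12 from 17544794 to 17551505, plus strand) had the widest difference between the diets of the 8 genes. It was at 228, 279, 259, 328, 301, 297 and 362 FPKM in chow from ZT 1 to ZT 25, and at 260, 248.7, 176, 198, 189, 119 and 228 FPKM in EpSA. From ZT 5 on, each EpSA value lay below the chow value of the same time, and the ratio of EpSA to chow was lowest at ZT 21, at 0.400. The mean log2 difference was -0.56 ± 0.15 (SE; limma, unadjusted p = 0.0038), and it missed the threshold after Benjamini-Hochberg adjustment over all genes (adjusted p = 0.109). In its alternatives the adjusted p ranged from 0.0672 to 0.287. Odc1 has a transcript of 2208 bases, and its log2 difference at ZT 21 was -1.32 as deposited and -1.26 with the length trend removed.

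The other genes of polyamine metabolism had small differences. Of 12 measured genes of synthesis, breakdown and antizyme control, 9 were below 0, against 53.9% of all genes. The median log2 difference was -0.03, against -0.01 over all genes. None passed the test, and 1 was lower at an unadjusted p under 0.05 in limma, as were 10.6% of all genes. The gene at that level was Oaz1, the antizyme that directs ornithine decarboxylase to degradation, at -0.24 ± 0.08 (adjusted p = 0.176 in limma) and lower in EpSA at 7 of 7 times. Its level ran from 31.2 to 44.8 FPKM in chow and from 25.9 to 35.5 FPKM in EpSA.

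Miox (chromosome 15 from 89334398 to 89337015, plus strand) was the only gene of the 8 whose mean difference was above 0 in the values as deposited. It was at 586, 571, 594, 635, 787, 671 and 728 FPKM in chow and at 755, 656, 606, 647, 731, 623 and 745 FPKM in EpSA. The diets overlapped, with a log2 difference of 0.06 ± 0.06 (limma, adjusted p = 0.626). The widest gap was at ZT 1, where EpSA was at 1.29 times the chow level, while at ZT 17 and ZT 21 EpSA was at 0.93 times. Among 11 measured genes of inositol uptake, synthesis and breakdown, 7 were below 0 with a median of -0.01, against 53.9% of all genes. None passed the threshold, adjusted or unadjusted, where 0.232% and 19.2% of all genes did. Akr1b3, the aldose reductase that makes sorbitol, was at -0.26 ± 0.17 (adjusted p = 0.429).

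Neither acyl-CoA synthetase passed the diet test. Acsm2 (chromosome 7 from 119554340 to 119600690, plus strand) ran from 598 FPKM at ZT 5 to 730 FPKM at ZT 17 in chow, with a median of 662 FPKM, and from 587 FPKM at ZT 21 to 687 FPKM at ZT 13 in EpSA, with a median of 642 FPKM. Its log2 difference was -0.05 ± 0.06 (limma, adjusted p = 0.702), and it turned positive, at 0.06 by quantile normalization and 0.04 with mitochondrial genes left out of the sum. Acsm3, which neighbours Acsm2 (chromosome 7 from 119760923 to 119787513, plus strand), ran from 75.3 to 121 FPKM in chow and from 68.0 to 108 FPKM in EpSA, with a log2 difference of -0.14 ± 0.08 (adjusted p = 0.384). The lowest Acsm3 value was that of the EpSA ZT 9 pool, the one with adrenal transcripts. Acsm2 and Acsm3 belong to a family of similar sequence, so reads shared between its members could be split differently by another counting. In the list of related synthetases and glycine conjugation enzymes, 3 of 7 measured genes were below 0 and the median was 0.06. Over all genes 53.9% were below 0 and the median was -0.01. Acsm1 was at 0.25 ± 0.06 (adjusted p = 0.0925) and higher in EpSA at 7 of 7 times, Acsf2 was at 0.21 ± 0.17 (adjusted p = 0.511), and none passed.

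Spink1 was level in all pools but 1. In chow it was at 562, 553, 602, 604 and 523 FPKM from ZT 1 to ZT 17, 952 FPKM at ZT 21 and 628 FPKM at ZT 25. In EpSA it was at 612, 586, 609, 563, 567, 538 and 512 FPKM. The chow ZT 21 pool was 1.52 times the next highest chow pool, and without it the pools of both diets fell within 512 to 628 FPKM. The log2 difference was -0.13 ± 0.11 (limma, adjusted p = 0.566), and it was -0.01 without ZT 21 and -0.03 with the length trend removed. Spink1 has a transcript of 729 bases, close to that of Kap. It stood 0.72 above the other chow pools, which put it at position 37 of 417 short genes, and 0.47 above them with the length trend removed. Because Spink1 is known from the pancreas, acinar markers were read beside it: of 10 markers, 9 were at or below 0.15 FPKM in every pool. The other, Cela1, an elastase, was at 18.9 to 32.1 FPKM, and the list summed to 21.5 FPKM in chow at ZT 21 within a chow range of 19.1 to 32.1 FPKM.

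Daily rhythm was tested with a cosine and sine of 24 h. The ± beside an amplitude is the standard error of the cosine term of the fit, not of the amplitude itself. None of the 7 genes tested in chow or the 8 tested in EpSA passed, against 12 genes (0.0899%) over all genes in chow and 6 genes (0.0450%) in EpSA. At an unadjusted p under 0.05 only Cyp2e1 passed in chow, where 1378 genes (10.3%) did, and none in EpSA, where 1163 genes (8.72%) did. In chow, Cyp2e1 had a log2 amplitude of 0.21 ± 0.07 with a peak at 14.4 h (limma, adjusted p = 0.484), Cyp4b1 0.19 ± 0.06 at 15.8 h (adjusted p = 0.496) and Miox 0.19 ± 0.07 at 18.5 h (adjusted p = 0.571). Kap in EpSA, which its choice did not use, had an amplitude of 0.13 ± 0.08 with a peak at 7.5 h (adjusted p = 0.745). No member of the 7 tested had a rhythm that differed between the diets, in a test that no gene passed (0.00%, and 588 genes or 4.41% at an unadjusted p under 0.05); their adjusted p were 0.817 to 0.968.

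The rhythm statistics in the authors' deposited table gave a similar list. In the authors' deposited table, Cyp2e1 in chow had a meta2d p of 0.0303 with a q of 0.842 and a phase of 15.4 h. Of 13252 genes averaging at least 1 FPKM in chow, 1558 (11.8%) had a meta2d p under 0.05 in the authors' deposited table. For Cyp4b1 in chow the authors' deposited table gave p = 0.129 and a phase of 16.6 h. For Kap it gave a phase of 19.5 h in chow and 10.02 h in EpSA, with an amplitude relative to baseline of 0.141 and 0.0195 in the authors' deposited table. Apart from Kap in chow, which was not read as a test, all other meta2d q of these genes were 1 in the authors' deposited table.

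At ZT 21 all 8 genes were lower in EpSA than in chow. The log2 differences were -1.32 for Odc1, -1.10 for Kap, -0.82 for Spink1, -0.72 for Cyp2e1, -0.51 for Cyp4b1, -0.24 for Acsm2, -0.15 for Acsm3 and -0.11 for Miox. The difference of Kap rests on the value it was chosen for, and the median of the 7 others was -0.51. Over all 13344 genes, 5380 were lower in EpSA at that time and the median was 0.07. Over the 4318 genes averaging 10 FPKM or more the median was -0.07, and it was -0.46 for those with transcripts under 800 bases. With the length trend removed, Spink1 was at -0.42 and Miox at 0.18, and the others stayed below 0. For Kap, Cyp2e1, Cyp4b1, Odc1 and Acsm2, ZT 21 was also the lowest of the 7 EpSA pools, 62.5% of the 8 genes against 15% of all genes. In chow, ZT 21 was the highest pool for Kap, by which it was chosen, and for 1 of the 7 others, Spink1 (14.3%, against 17.9% of all genes).

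The 8 genes were compared in their course over pools by Pearson correlation of log2(FPKM + 1), as a description, since the pools share their libraries across genes. Over the 7 EpSA pools, Kap was most like Cyp2e1 (r = 0.953) and Cyp4b1 (r = 0.917), and less like Odc1 (r = 0.737), Acsm2 (r = 0.732), Spink1 (r = 0.636), Miox (r = 0.214) and Acsm3 (r = -0.250). Over the 7 chow pools, the correlation of Kap was -0.053 with Cyp2e1, 0.098 with Cyp4b1 and 0.912 with Spink1. These chow values include the ZT 21 pool by which Kap was chosen. Over the pools of both diets without it, r of Kap was 0.736 with Cyp2e1, 0.736 with Cyp4b1 and 0.603 with Spink1. The P450 genes kept to each other in both diets, at r = 0.939 in chow and 0.882 in EpSA. The genes whose promoter windows are shown thus had like courses in EpSA, from a highest pool at ZT 1 to a lowest at ZT 21 in all 3. Odc1 had its highest and lowest EpSA pools at the same times, and its r with Cyp4b1 over the EpSA pools was 0.882. In chow their courses were not alike: Kap was highest at ZT 21, the pool by which it was chosen, and both P450 genes at ZT 17.

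**Figure D4:**
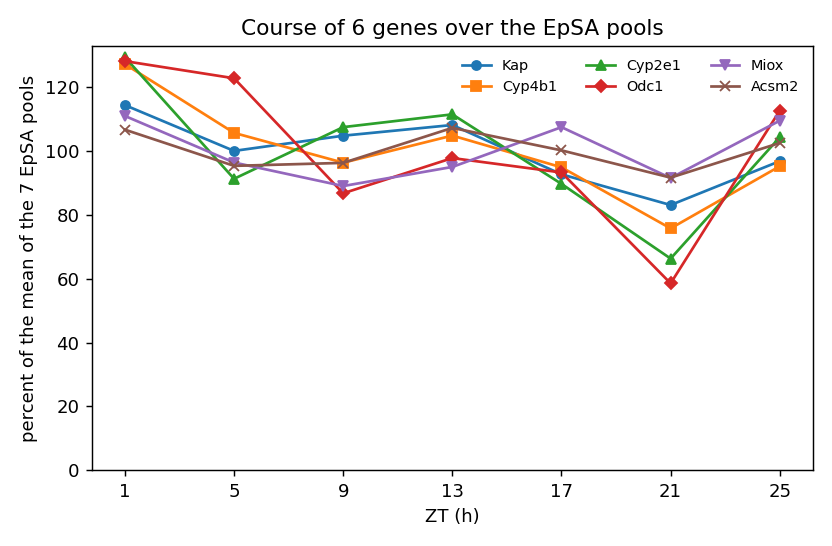
Level of 6 genes in the 7 EpSA pools as a percentage of each gene's own mean over those pools, by ZT in hours; each point is 1 pool. Kap, Cyp2e1, Cyp4b1, Odc1 and Acsm2 had their lowest value at ZT 21.

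Male-biased and androgen-responsive kidney genes were read as the surroundings of Kap, Odc1 and Cyp4b1. Of 11 such genes, 9 were below 0 in EpSA against chow, where 53.9% of all genes were, with a median log2 difference of -0.28 against -0.01 over all genes. None passed the adjusted threshold. At an unadjusted p under 0.05 in limma 8 were lower and 1 higher, against 10.6% and 8.58% of all genes. Nudt19, a peroxisomal hydrolase, was at -0.37 ± 0.13 (adjusted p = 0.174) and was at 555 FPKM in the chow ZT 21 pool, its highest, and at 237 FPKM in the EpSA ZT 21 pool, its lowest. Adh1, an alcohol dehydrogenase, was at -0.34 ± 0.06 (adjusted p = 0.0586) and lower at 7 of 7 times, with 238 to 308 FPKM in chow and 194 to 269 FPKM in EpSA. Cyp4a12a, of the same enzyme family as Cyp4a10, was at -0.32 ± 0.13 (adjusted p = 0.238), and Cyp7b1, an oxysterol and steroid hydroxylase, at -0.30 ± 0.11 (adjusted p = 0.209). The 2 genes above 0, named after their values were seen, were Slc22a30 and Cyp4a12b, the latter at 0.22 ± 0.05 (adjusted p = 0.0806) and a near copy of Cyp4a12a, so that reads could be split between them. Markers of some other cell types also lay on 1 side of 0, where 53.9% of all genes were below it. All 5 macrophage markers were below 0 with a median of -0.48, as were all 5 red blood cell markers (-0.43). All 4 of the thick ascending limb were also below 0 (-0.23), while all 4 podocyte markers were above 0 (0.26). Of the endothelium 2 of 4 markers were below 0, of the collecting duct 6 of 7 and of the distal convoluted tubule 1 of 3. The macrophage median was -1.38 at ZT 1, 0.30 at ZT 17 and 0.12 at ZT 21. None of these markers passed the adjusted threshold, and their part in the differences of the 8 genes and of the lists was not tested. The median of the androgen-responsive list was -0.47 at ZT 21, 0.09 at ZT 1 and -0.22 over the day without ZT 21.

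Another list was read as genes higher in females, and 3 of its 4 genes could be tested. All mice were male, so whether each is higher in female kidneys could not be checked here. Cyp4a14 stood at 0.92 ± 0.26 (adjusted p = 0.123) and higher in EpSA at 7 of 7 times, and Cyp2a4 at -0.26 ± 0.07 (adjusted p = 0.105). Slc7a12, an amino acid carrier, was at -0.32 ± 0.21 (adjusted p = 0.423). These genes did not share a direction.

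The last proximal tubule segment, S3, where androgen-dependent genes are prominent, was read by 8 genes, 3 of which are also on the sex-biased lists. Of these 3, Slc7a13 and Cyp7b1 are on the male-biased list and Slc7a12 on the list read as higher in females. All 8 were below 0, as 53.9% of all genes were, with a median of -0.29. None passed the adjusted threshold, and 5 were lower at an unadjusted p under 0.05 in limma, against 10.6% of all genes. The list median was widest at ZT 9, at -0.49, where the EpSA pool held adrenal transcripts, and was -0.48 at ZT 21. Atp11a, a phospholipid flippase, was at -0.36 ± 0.07 (adjusted p = 0.0693), lower at 7 of 7 times, with 131 to 157 FPKM in chow and 89.2 to 140 FPKM in EpSA. Slc22a7, an organic anion carrier, was at -0.33 ± 0.12 (adjusted p = 0.201). The summed level of this list was 798 to 874 FPKM in chow and 576 to 791 FPKM in EpSA, lowest at ZT 21. These 2 overlapping lists were chosen with the values of Kap in view, and nothing about them was tested as a set.

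**Figure D5:**
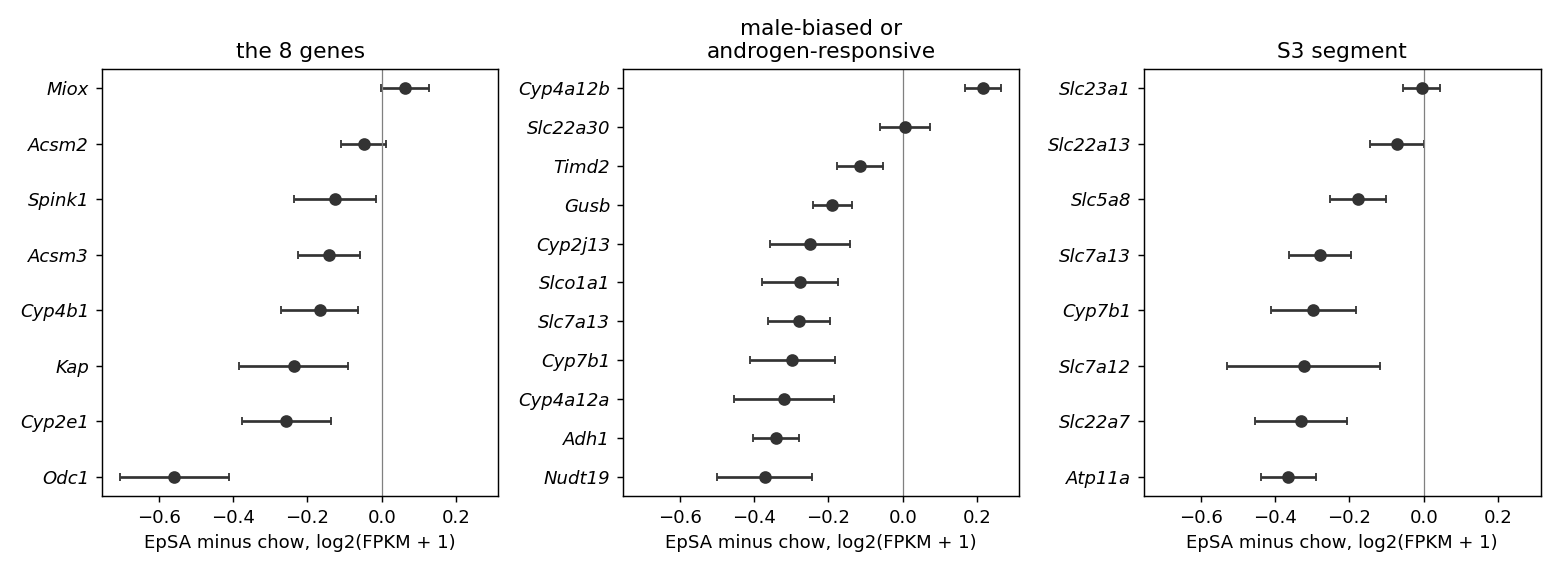
Mean log2(FPKM + 1) difference of EpSA minus chow over 7 times for the 8 genes (left), male-biased or androgen-responsive genes (middle) and S3 genes (right); points are estimates and bars the standard error of the diet model. Odc1 lay lowest at -0.56, Miox was above 0 among the 8, and all S3 genes were at or below 0.

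The abundant genes of the proximal tubule as a whole did not share this side. Of 21 such genes, 11 were below 0 and the median was 0.00, none passed, and 6 were higher and 4 lower at an unadjusted p under 0.05 in limma, against 8.58% and 10.6% of all genes. Slc5a12, a lactate carrier, was at 0.39 ± 0.15 (adjusted p = 0.206), Pck1, the gluconeogenic carboxykinase, at 0.36 ± 0.13 (adjusted p = 0.184) and Slc5a2, the glucose carrier of the early tubule, at 0.36 ± 0.08 (adjusted p = 0.0775). Cndp2, a dipeptidase, was at -0.39 ± 0.11 (adjusted p = 0.116). The summed level of the list was 20408 to 22806 FPKM in chow and 19495 to 21384 FPKM in EpSA. At ZT 21 the median log2 difference of this list was 0.03, and that of the 7 genes other than Kap was -0.51.

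Likeness to Kap was also ranked over the whole table, by Pearson r of log2(FPKM + 1) over the 14 pools among 4310 genes averaging 10 FPKM or more, whose median r was 0.07. The 10 genes most like Kap were Sod1, the cytosolic superoxide dismutase (r = 0.979), Prdx5, a peroxiredoxin (r = 0.959), Tmbim4 (r = 0.957), Ndufa4, a subunit of cytochrome oxidase (r = 0.955), Mien1 (r = 0.953), Qdpr, which regenerates tetrahydrobiopterin (r = 0.941), Txndc17 (r = 0.941), the proteasome subunit Psmb1 (r = 0.938), Rpl22l1 (r = 0.932) and Iah1 (r = 0.930). At ZT 21, Sod1 had 173 FPKM in chow and 98.0 FPKM in EpSA, around means of 124 and 109 FPKM. The 5 genes with the lowest r were Cnot2, a subunit of the CCR4-NOT deadenylase (r = -0.936), Gtpbp2 (r = -0.904), the lysosomal peptidase Tpp1 (r = -0.900), Mybbp1a (r = -0.899) and Fbh1 (r = -0.885). The 10 alike had transcripts of 552 to 1758 bases and the 5 unlike of 2800 to 4358 bases. With the length trend removed, r over the same 14 pools was 0.816 to 0.952 for the 10 and -0.834 to -0.627 for the 5. Both r and the ranking include the chow ZT 21 pool, by which Kap was chosen. Without that pool, r was 0.807 to 0.944 for the 10 and -0.836 to -0.746 for the 5. In all, 47 genes reached r of 0.9 over 14 pools and 1 did without the chow ZT 21 pool. That gene was Sod1, at r = 0.944 over the 13 other pools and 0.952 over 14 pools with the length trend removed.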

How the data were processed

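The labels' protocols describe 42 kidney RNA libraries read as pairs of 150 bases. Aligner, counter, genome build and meta2d version: not given in the sources used here. From the authors come 2 deposited tables of 56691 genes, 1 per diet, with 7 expression columns each. FPKM is the unit assumed for the deposited values, since no header states one. They hold fractions, and the lowest nonzero value declines with transcript length. All 793674 end in 0, 3 or 7 thousandths, as means of 3 do. The tables also hold the authors' meta2d p-values and q-values, phases in hours and other statistics, and a ratio of amplitude to baseline, per the file headers. No column of per-sample values was left unused (0). Of the identifiers, 52073 had a symbol and an annotated transcript length, taken from the principal transcript of GENCODE on GRCm38.

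The 13344 genes whose mean reached 1 FPKM entered limma as log2(FPKM + 1), a pseudocount of 1, in version 3.58.1 in R 4.3.3, with a prior spread following the mean level and Benjamini-Hochberg adjustment at 0.05. This scale understates differences of low genes. Time was a factor in the diet model, and rhythm was a 24 h cosine and sine. Each pool counted as 1 sample, so p-values measure only the spread between times. Kap was fitted with all other genes and counts in the totals over all genes, but no test that its choice used was read for it. Scripts were tested on simulated data. The members, the lists and the motifs were chosen with earlier results of these data known, and 1 listed gene is not reported here. Named list genes are up to 4 per list with the largest absolute log2 difference of at least 0.2, and the 10 most and 5 least like Kap. Python 3.11.15 with numpy 2.4.6, pandas 2.3.3 and matplotlib 3.10.9 served for the rest.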

Additional observations from a re-analysis of the deposited data

Results flagged for a closer look

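The chow value of Spink1 at ZT 21, 951.97 FPKM, lay far from the 6 other chow pools. Its gap to the next pool was 0.755 of the whole range of the 7 pools, above Dixon's critical value for 7 values. It was the only one of 15 sets examined, the 8 genes in each diet without Kap in chow, which was chosen from those values, and the chance of such a mark is about 1 in 20 per set. The pools are times of day and not replicates of 1 group. Kap was also highest in that pool, at 62960 FPKM.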

How the results depend on the processing

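The calls of no tested gene of the 8 changed side under any alternative run, and Acsm2 alone turned direction in the diet difference, to 0.062 by quantile normalization and 0.036 with mitochondrial genes left out of the sum; the cause was not tested. The diet difference of Kap stayed below 0 in 16 alternatives, from -0.294 to -0.092. Quantile normalization was left out for Kap. It ranks first in every pool, so that setting gives it the same value in each and no difference between the diets, by construction. Over all settings the log2 difference ran from -0.683 to -0.432 for Odc1, -0.37 to -0.172 for Cyp2e1, -0.254 to -0.082 for Cyp4b1, -0.186 to -0.058 for Acsm3, -0.166 to -0.009 for Spink1 and 0.013 to 0.163 for Miox. The counts over all genes were unstable, and the cause was not tested. The count of 31 for the diet difference (21 higher, 10 lower) was 67 (36 and 31) with a mean of at least 5 FPKM, 17 (14 and 3) with the medians set equal, 6 (1 and 5) as shares of the sum without the 8 genes, 159 (97 and 62) with no time factor and 0 with no filter, and quantile normalization split 42 calls into 31 and 11. With settings chosen after the data were seen it was 114 (93 and 21) with the length trend removed, 7 (5 and 2) without mitochondrial genes and 3 (1 and 2) with a prior spread not following the mean. Leaving out 1 time gave 0 (without ZT 5 or ZT 25), 1 (ZT 13 or ZT 17), 2 (ZT 1), 3 (ZT 21) and 7 (ZT 9). For rhythm in chow, 12 became 7 with a mean of at least 5 FPKM, 5 by quantile normalization, 0 with no filter, 3 without ZT 5 and 0 without any other single time. For rhythm in EpSA, 6 became 3 by quantile normalization and 0 with no filter, and 0 (without ZT 9), 1 (ZT 13 or ZT 21), 2 (ZT 1 or ZT 25), 3 (ZT 17) or 5 (ZT 5) with 1 time left out. The difference of rhythm kept a count of 0 in all, with 347 to 1702 genes at an unadjusted p under 0.05. The median log2 difference of all genes lay between -0.041 and 0.059 in all settings. No paired analysis was possible because the tables hold 1 column per diet and time with no replicate numbers, so the replicate block was not run. The files give no depth, so counting error is not known.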
